A study of Mus musculus with 15 samples.

Results

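The genes described here are 10 components and targets of the Hippo pathway: the coactivators Yap1 and Wwtr1, the DNA-binding factor Tead1, and Ankrd1, Amotl2, Crim1, Lats2, Axl, Ajuba and Ptpn14. They were taken by name, with earlier results of these data known. All 10 were among the 16462 features that passed the expression filter, of 34554 measured. RNA was sequenced from organoids of normal mouse pancreatic ducts, which are hollow epithelial cultures grown in Matrigel. Inducible lines (A217, A220 and A225) switch on the alleles for CA19-9, a sialylated Lewis a glycan that mice lack, when given doxycycline. They were compared with genetic negative lines (A218 and A223). Doxycycline was given at 1 µg/ml for 0, 4 or 24 h to every line, and the 15 libraries comprise 3 inducible and 2 negative ones per time. Both genotypes received the same doxycycline, the medium of all cultures was renewed 24 h before the common harvest, and it contained EGF and an inhibitor of TGF-β receptors, per the labels' protocols. Which alleles the negative lines lack, which promoter drives the induced ones and how many animals the lines came from are not given in the sources used here. P-values therefore apply to these 5 lines. Where the fit leaves the line out, they measure the spread between libraries of a group. Where the fit includes the line, they measure the spread left within lines.

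The Hippo pathway is a kinase cascade that holds the coactivators YAP (gene Yap1) and TAZ (gene Wwtr1) in the cytoplasm. When the cascade is less active, both enter the nucleus and act through TEAD factors, which bind DNA, to switch on genes of growth, cell shape and adhesion. Several targets, among them Lats2, Amotl2 and Ajuba, encode proteins that act back on the cascade. In the pancreas YAP is known from ductal cells and from the change of acinar cells into duct-like cells.

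TEAD factors bind a core that reads GGAATG on either strand. RefSeq windows of 300 bases around transcription starts (250 before, 50 after; build GRCm38.p6) matched 9 of the 10 genes, all but Tead1. Each of these 9 genes had the letters GGAATG in a window, against 14.7% of all 32851 windows and 16.6% of the 27025 genes that have one. Ankrd1 and Ajuba held 2 copies each. The AP-1 motif TGANTCA was found in windows of 0 of the 9 genes, against 7.81% of all windows and 8.97% of the genes that have one. For 9 genes a count of 0 is near that share. Neither motif contains the other. A match of letters is a description and shows no binding. The copies are shown because they are what these start regions share; capitals mark the motif, each sequence is read 5′ to 3′ on the strand that carries GGAATG, and the coordinates are those of the motif.
Yap1 at chr9:8004732-8004737: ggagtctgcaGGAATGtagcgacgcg
Wwtr1 at chr3:57576041-57576046: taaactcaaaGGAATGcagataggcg
Ankrd1 at chr19:36120049-36120054: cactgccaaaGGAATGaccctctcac
Ankrd1 at chr19:36119962-36119967: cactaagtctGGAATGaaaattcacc
Amotl2 at chr9:102717739-102717744: tgctatgccaGGAATGtgagagtttc
Crim1 at chr17:78200169-78200174: ggcgggggggGGAATGaggtaggatg
Lats2 at chr14:57746114-57746119: tgacgcccgtGGAATGccaacaatgt
Axl at chr7:25788961-25788966: aaattctacaGGAATGtttaccagac
Ajuba at chr14:54577842-54577847: ggggcactgtGGAATGtatccatcaa
Ajuba at chr14:54577820-54577825: gtttacagttGGAATGcgcggagggg
Ptpn14 at chr1:189728122-189728127: gggcgggccaGGAATGcgtccgggga
The motif read in the direction of the gene in Yap1, Wwtr1, Ankrd1, Crim1, Lats2 and Axl and against it in Amotl2, Ajuba and Ptpn14. In Lats2 it began 5 bases after the RefSeq start. In the other 8 genes it lay before the RefSeq start, between 65 bases before it in Amotl2 and 233 bases before it in Axl. In the GENCODE M21 annotation, however, the Amotl2 copy lay inside the span of the transcript Amotl2-201, which starts at chr9:102717668. Both Ankrd1 copies lay inside the annotated gene, chr19:36111961-36120099. A second Lats2 window, at another start, held no copy.

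The 250 bases before the starts of the coactivator genes themselves show the setting of the motif, again with GGAATG in capitals. Both genes lie on the minus strand, and the sequences are read in the direction of the gene, Yap1 from chr9:8004597-8004846 and Wwtr1 from chr3:57575911-57576160 (RefSeq, GRCm38.p6).
Yap1: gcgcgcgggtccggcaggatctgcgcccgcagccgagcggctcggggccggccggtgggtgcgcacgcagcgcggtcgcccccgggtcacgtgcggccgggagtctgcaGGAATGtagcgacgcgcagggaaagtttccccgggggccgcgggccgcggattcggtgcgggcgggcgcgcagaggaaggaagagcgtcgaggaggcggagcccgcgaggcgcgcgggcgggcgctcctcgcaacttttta
Wwtr1: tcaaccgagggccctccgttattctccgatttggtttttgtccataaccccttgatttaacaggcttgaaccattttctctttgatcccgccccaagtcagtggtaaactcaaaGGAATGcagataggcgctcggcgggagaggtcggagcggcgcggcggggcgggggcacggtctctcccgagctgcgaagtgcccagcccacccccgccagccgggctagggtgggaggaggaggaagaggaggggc

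Library totals of estimated counts ran between 47915632 and 59411540. Within groups, 12 pairs of libraries differed by more than sampling noise, with a chi-square per degree of freedom of 14.8 to 43.2. The added EGFP sequence, a marker of the induced alleles, stood at 0.871 to 1.87 TPM (a measure corrected for transcript length and library total) at 0 h, 664 to 866 TPM at 4 h and 677 to 963 TPM at 24 h in inducible lines. Negative lines had 0.906 TPM or less at every time. Duct markers summed to between 9310 and 15700 TPM in the 15 libraries, and the marker sums of acinar, endocrine, immune and endothelial cells to 5.04 TPM or less each.

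On the TPM scale, which corrects for length, Ankrd1 was the most abundant of the 10 genes and Axl the least. Medians over the 15 libraries were 266 TPM for Ankrd1, 132 TPM for Amotl2, 82 TPM for Ajuba, 65.4 TPM for Yap1 and 44.4 TPM for Wwtr1. They were 28.6 TPM for Crim1, 26.2 TPM for Ptpn14, 21.2 TPM for Lats2, 12.3 TPM for Tead1 and 3.12 TPM for Axl. In this order the ranges of Ajuba and Yap1, of Crim1 and Ptpn14, of Ptpn14 and Lats2, and of Lats2 and Tead1 overlapped, and those of the other neighbours did not. Over the libraries Ankrd1 ranged from 204 to 455 TPM and Axl from 0.949 to 6.85 TPM. In the log2 CPM of the 15 libraries (CPM: counts scaled to library size, with TMM factors), Axl had an SD of 0.987, Ankrd1 of 0.339 and Tead1 of 0.264, and Yap1 had the smallest, 0.0595. For Axl most of this lay between lines, with an SD of 0.89 between line means, whereas for Crim1 the line means had an SD of 0.0103.

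**Figure D1:**
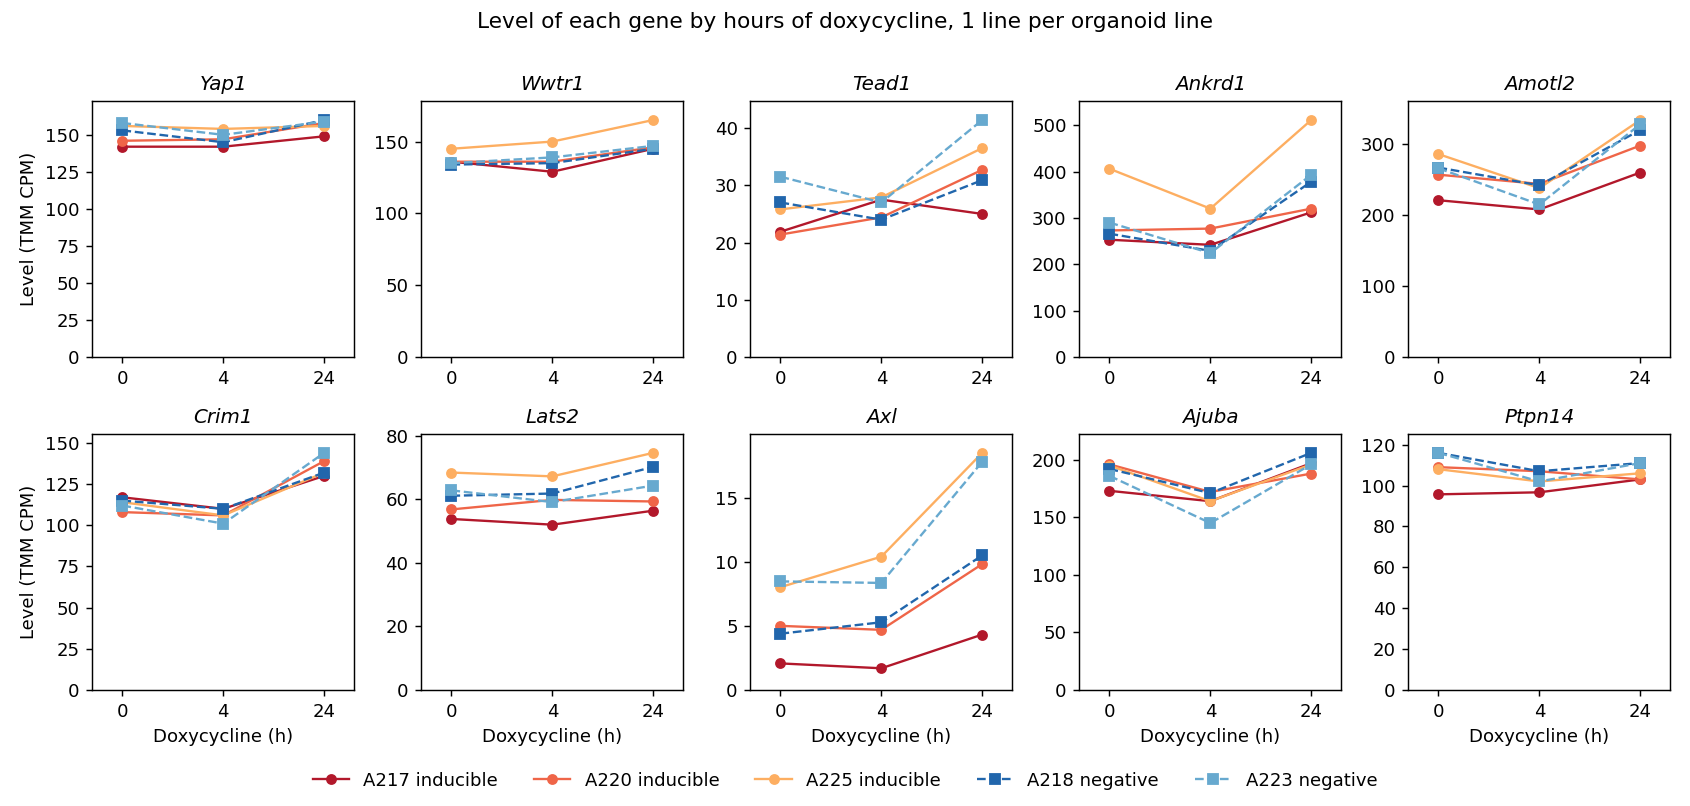
Level of each of the 10 genes in CPM with TMM scaling (vertical axes from 0) after 0, 4 and 24 h of doxycycline, with times spaced evenly; each line joins the 3 libraries of 1 organoid line, inducible lines in red and orange with circles and negative lines in blue with squares. Axl, Ankrd1, Amotl2 and Crim1 were higher at 24 h than at 0 h in 5 of 5 lines, in both genotypes, and so was Yap1, which lay between 142 and 160 CPM over all libraries.

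The clearest pattern over time was a higher level at 24 h than at 4 h, seen in lines of both genotypes. Whether the size of this difference varied with genotype was not tested. Averaged over the genotypes, Ankrd1, Amotl2, Crim1, Tead1 and Ajuba rose at 24 h relative to 4 h, by 0.28 to 0.61 on the log2 scale, and no member fell (edgeR's quasi-likelihood test with Benjamini-Hochberg adjustment over all 16462 features, adjusted p below 0.05). These were 5 of the 10 genes, against 11.3% of all tested features that rose in this comparison. When the organoid line entered the fit (the replicate block, which compares each line with itself), 9 of the 10 rose, all but Ptpn14, against 21.2% of all features. The median log2 difference of the 10 genes was 0.32, and that of all tested features was 0. Because the 10 genes were chosen with earlier results of these data known, these shares and medians are a description and not a test of the pathway. The comparisons with 0 h and with 4 h share libraries, so they are given side by side and are not independent of each other. In bulk RNA, fewer cells of a type and less RNA per cell cannot be told apart.

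Yap1 and Wwtr1 encode the coactivators YAP and TAZ, and Yap1 varied least of the 10 genes over the 15 libraries. Yap1 lay between 142 and 158 CPM in inducible lines and between 145 and 160 CPM in negative lines over all times. In CPM its times overlapped in inducible lines and did not overlap in negative lines. It was higher in CPM at 24 h than at 0 h in 5 of 5 lines, by 0.01 to 0.11 on the log2 scale. In TPM Yap1 moved in both directions between 0 and 24 h, from 62.8 to 67.5 in A220 and from 72.9 to 65.4 in A223. Its difference between 24 h and 4 h was 0.09 ± 0.04 (log2, SE), with an edgeR adjusted p of 0.126, and 0.0227 with the replicate block. The 95% interval of that difference was 0.01 to 0.17 without the block. Wwtr1 was 145, 146 and 165 CPM at 24 h, against 136, 136 and 145 CPM at 0 h, in inducible lines. Negative lines had 145 and 147 CPM at 24 h, against 134 and 135 CPM at 0 h. It was higher at 24 h in 5 of 5 lines, by a log2 difference of 0.12 ± 0.05 averaged over the genotypes (edgeR adjusted p 0.0979, and 0.00364 with the replicate block). Yap1 lies at chr9:7931999-8004596 (GRCm38) and shares exon bases with Gm20416 on the opposite strand, so part of its reads cannot be told apart from that gene without strand; Wwtr1 lies at chr3:57455649-57575910.

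Tead1 encodes a TEAD factor that carries YAP and TAZ to DNA and lies at chr7:112679318-112906807. In inducible lines it stood at 21.9, 27.5 and 25 CPM at 0, 4 and 24 h in A217, at 21.4, 24.4 and 32.7 CPM in A220, and at 25.8, 27.9 and 36.5 CPM in A225. Among negative lines, A218 had 27, 24 and 30.9 CPM and A223 had 31.5, 27 and 41.4 CPM. It was higher at 24 h than at 0 h in 5 of 5 lines, although the groups overlapped, and A217 was lower at 24 h than at 4 h. Tead1 rose at 24 h relative to 0 h by a log2 of 0.38 ± 0.11 (SE; 95% interval 0.13 to 0.62, edgeR adjusted p 0.0362) and relative to 4 h by 0.37 ± 0.11 (adjusted p 0.0369). The call against 4 h was lost without any 1 of 8 of the 10 libraries compared (adjusted p up to 0.194), and was kept without A217 or A218 at 24 h; that against 0 h was lost without any 1 of 7, all but A217 or A218 at 24 h and A225 at 0 h (adjusted p up to 0.191). With an offset for effective transcript length both were lost as well, with an adjusted p of 0.108 against 0 h and 0.0589 against 4 h.

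Among the proteins that act on the cascade, Ajuba encodes a LIM-domain protein that holds LATS kinases back. In inducible lines it stood at 173, 164 and 197 CPM at 0, 4 and 24 h in A217, at 196, 172 and 188 CPM in A220, and at 195, 164 and 196 CPM in A225. The negative line A218 had 192, 171 and 206 CPM, and the negative line A223 had 186, 145 and 196 CPM. The 5 libraries at 4 h lay below the 10 others, and 0 h and 24 h overlapped in inducible lines. Ajuba differed at 4 h relative to 0 h by a log2 of -0.22 ± 0.05 (edgeR adjusted p 0.0636), and with the replicate block it fell by 0.22 (adjusted p 0.0035). Ajuba then rose at 24 h relative to 4 h by 0.28 ± 0.05 (adjusted p 0.00249), a call kept without any 1 library and lost without the whole line A223 (adjusted p 0.0633). Its difference between 24 h and 0 h was 0.06 ± 0.05, with a 95% interval of -0.04 to 0.17. Ajuba lies at chr14:54567472-54577558.

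Amotl2 encodes an angiomotin-like protein that binds YAP and is itself a target. In inducible lines it stood at 221, 208 and 260 CPM at 0, 4 and 24 h in A217, at 257, 244 and 298 CPM in A220, and at 286, 238 and 334 CPM in A225. Negative levels were 267, 242 and 320 CPM in A218 and 266, 215 and 328 CPM in A223. In CPM each line had its lowest level at 4 h and its highest at 24 h, and libraries of 24 h and 4 h did not overlap in either genotype. In TPM A225 was lower at 24 h (152) than at 0 h (155), and the other lines were higher. A220 was higher in TPM at 4 h (128) than at 0 h (123), and the other lines were lower. Amotl2 rose at 24 h relative to 4 h by a log2 of 0.44 ± 0.08 (95% interval 0.26 to 0.61, edgeR adjusted p 0.00343), a call kept without any 1 library and lost without the whole line A223 (adjusted p 0.107). Relative to 0 h it rose at 24 h by 0.25 ± 0.08 (adjusted p 0.0467). With the offset for effective length the value was 0.14 (adjusted p 0.252), and the call was lost without any 1 of 8 of the 10 libraries, all but A217 at 24 h and A225 at 0 h (adjusted p up to 0.137). The call against 0 h was also lost with median-of-ratios scaling (edgeR adjusted p 0.0561). A filter of 1 CPM in 3 libraries (0.056) and the compared groups alone (0.0764) lost it too. Between 4 h and 0 h the difference was -0.18 ± 0.08 (adjusted p 0.391, and 0.00821 with the replicate block). Amotl2 lies at chr9:102716672-102733418.

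Lats2 encodes a kinase that phosphorylates YAP and TAZ, and Ptpn14 a phosphatase that binds YAP. Lats2 stood at 56.4, 59.3 and 74.6 CPM at 24 h, against 53.8, 56.8 and 68.4 CPM at 0 h, in inducible lines, and at 70.2 and 64.3 CPM at 24 h, against 61.1 and 62.8 CPM at 0 h, in negative lines. In CPM Lats2 was higher at 24 h in 5 of 5 lines, by a log2 of 0.10 ± 0.09 (edgeR adjusted p 0.484, and 0.0427 with the replicate block), and its inducible groups overlapped. In TPM Lats2 moved in both directions between 0 and 24 h, from 18.2 to 20.3 in A220 and from 20.9 to 17 in A217. Ptpn14 was not called in any comparison in either fit, and its levels spanned 95.7 to 109 CPM in inducible lines and 102 to 116 CPM in negative lines. In TPM Ptpn14 was lower at 24 h than at 0 h in every line, from 24.3 to 24 in A217, 29.5 to 25.6 in A220 and 27.2 to 23.5 in A225. In the negative lines Ptpn14 went from 30.2 to 26.2 TPM in A218 and from 31.6 to 26.6 TPM in A223. It was the 1 member whose mean difference at 24 h relative to 0 h was negative, at -0.03 with a 95% interval of -0.12 to 0.06. Lats2 lies at chr14:57689662-57758388 and Ptpn14 at chr1:189728268-189876695, where Gm26574 on the opposite strand shares exon bases with it.

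Ankrd1 encodes a nuclear ankyrin repeat protein and is a widely used readout of YAP and TAZ activity. In inducible lines it stood at 253, 242 and 312 CPM at 0, 4 and 24 h in A217, at 273, 277 and 320 CPM in A220, and at 406, 320 and 511 CPM in A225. Of the negative lines, A218 had 266, 229 and 378 CPM and A223 had 290, 224 and 393 CPM. The 24 h library was the highest of its line in 5 of 5 lines. Between 24 h and 4 h the within-line log2 difference was 0.37 in A217, 0.21 in A220 and 0.67 in A225. In the negative lines it was 0.72 in A218 and 0.81 in A223, above each inducible line, and this contrast of genotypes was not tested. A225 was above the other lines at each time, so times overlapped in inducible lines, and in negative lines 24 h stood clear of 0 and 4 h. Ankrd1 rose at 24 h relative to 4 h by a log2 of 0.61 ± 0.16 (95% interval 0.27 to 0.94, edgeR adjusted p 0.0174). This call was lost without A218 at 4 h (adjusted p 0.0527), A223 at 4 h (0.0708) or A223 at 24 h (0.0598), and without the whole line A218 (0.133) or A223 (0.19). At 24 h relative to 0 h the difference was 0.38 ± 0.15 (adjusted p 0.105, and 8.42e-05 with the replicate block), and at 4 h relative to 0 h it was -0.22 ± 0.15 (adjusted p 0.667, and 0.0249 with the replicate block). Ankrd1 lies at chr19:36111961-36120099.

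Crim1 encodes a transmembrane protein that binds BMP family growth factors. In inducible lines it stood at 117, 110 and 130 CPM at 0, 4 and 24 h in A217, at 108, 106 and 139 CPM in A220, and at 114, 106 and 132 CPM in A225. The negative lines had 115, 110 and 132 CPM (A218) and 112, 101 and 144 CPM (A223). The 5 libraries at 24 h lay above the 10 libraries at 0 and 4 h. Crim1 rose at 24 h relative to 4 h by a log2 of 0.35 ± 0.04 (95% interval 0.27 to 0.44, edgeR adjusted p 0.000232) and relative to 0 h by 0.26 ± 0.04 (adjusted p 0.00126); both calls were kept without any 1 library. Without the whole line A223 the call against 0 h was lost (adjusted p 0.0637). Crim1 lies at chr17:78200248-78376592, and its exons share bases with Fez2 on the opposite strand.

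Axl, a receptor tyrosine kinase for the ligand GAS6, had the largest difference of the 10 genes and the widest spread between lines. In inducible lines it stood at 2.07, 1.69 and 4.32 CPM at 0, 4 and 24 h in A217, at 5, 4.69 and 9.82 CPM in A220, and at 8.02, 10.4 and 18.5 CPM in A225. In the negative line A218 it stood at 4.39, 5.28 and 10.5 CPM, and in A223 at 8.47, 8.35 and 17.8 CPM. Each line had more Axl at 24 h than at 0 h, with log2 differences of 1.06 in A217, 0.97 in A220 and 1.21 in A225, and of 1.25 in A218 and 1.07 in A223. The inducible lines differed from each other by more than this, so that their times overlapped. In negative lines 24 h stood clear of 0 and 4 h, which overlapped. Averaged over the genotypes the log2 difference was 1.12 ± 0.51 (95% interval 0.02 to 2.22) in the fit without the line, with an edgeR adjusted p of 0.147. Including the line, it was 1.12 ± 0.09 (95% interval 0.94 to 1.31, adjusted p 6.96e-07), and relative to 4 h it was 1.04 ± 0.09 (adjusted p 1.31e-06). Its difference at 4 h relative to 0 h was 0.09 ± 0.09 with the block (adjusted p 0.64), with 2 lines higher and 3 lower. Axl lies at chr7:25757273-25788705.

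**Figure D2:**
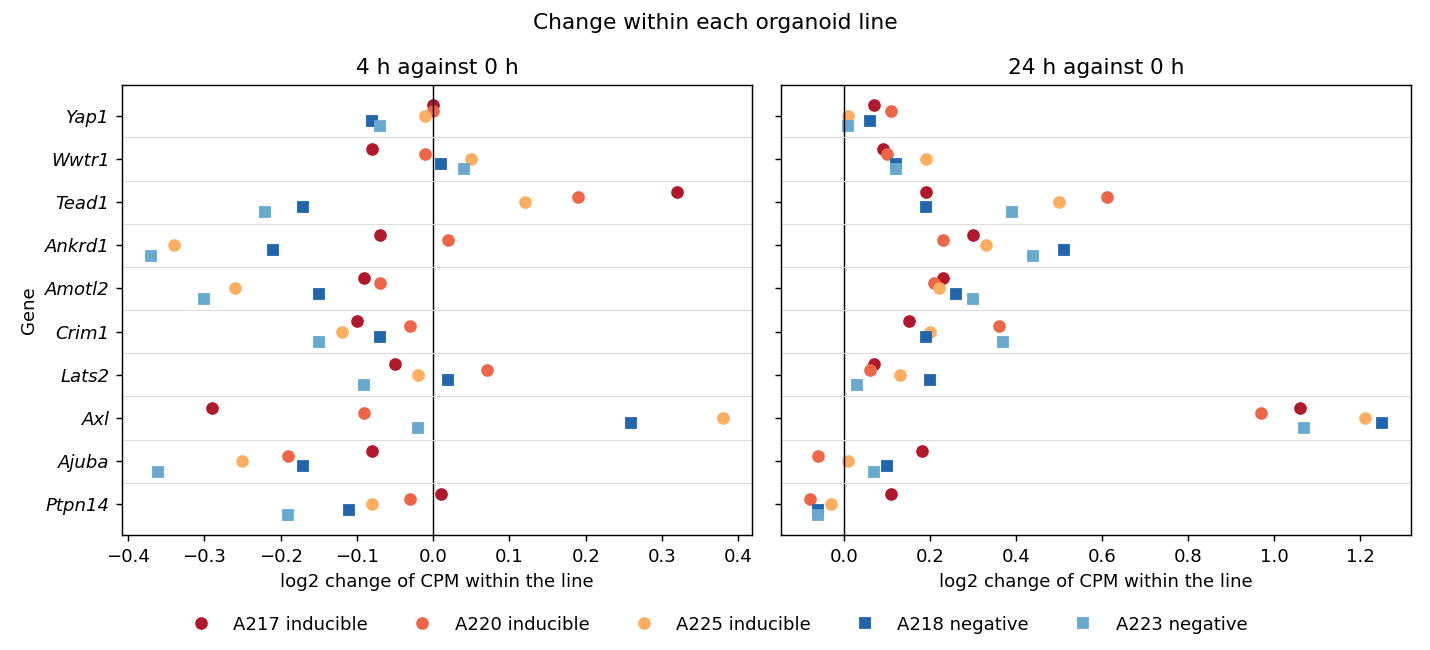
Within-line log2 difference of CPM at 4 h against 0 h (left) and at 24 h against 0 h (right) for each gene, 1 symbol per organoid line, circles for inducible and squares for negative lines. Axl lies at 0.97 to 1.25 at 24 h in both genotypes, and Ajuba and Amotl2 lie below 0 at 4 h in all 5 lines.

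Set against 0 h, Tead1, Amotl2 and Crim1 rose at 24 h when the genotypes were averaged, which was 3 of the 10 genes against 10.9% of all tested features. The block fit had 7 that rose, adding Wwtr1, Ankrd1, Lats2 and Axl, against 20.7% of all features. The median log2 difference of the 10 genes was 0.19, and that of all tested features was 0. At 4 h relative to 0 h edgeR called 0 of the 10 genes, against 0.911% of all features. At an unadjusted p below 0.05 edgeR had 4, all lower, while DESeq2 called 1 and limma-voom with a random block 1. For these counts no share of all features was taken. In the block fit Ankrd1, Amotl2 and Ajuba fell, against 4.92% of all features. The median of the 10 genes at 4 h was -0.07, and that of all features was 0. In CPM, Amotl2, Crim1 and Ajuba were lower at 4 h in 5 of 5 lines.

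**Figure D3:**
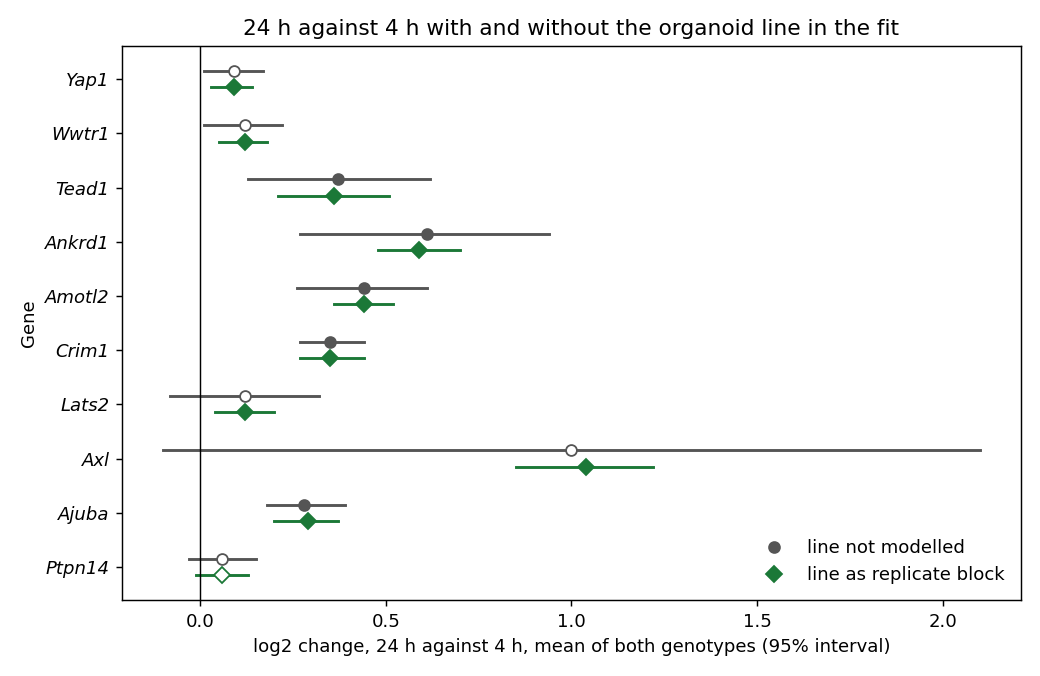
Log2 difference of 24 h against 4 h, averaged over both genotypes, with 95% intervals; grey circles leave the organoid line out of the fit and green diamonds include it as the replicate block, and filled symbols passed an adjusted p of 0.05. The interval of Axl is 0.85 to 1.22 with the line and -0.10 to 2.10 without it, while the interval of Crim1 is 0.27 to 0.44 in both.

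Within a single genotype fewer members passed. In inducible lines Crim1 rose at 24 h relative to 0 h by a log2 of 0.24 ± 0.05 (edgeR adjusted p 0.0216), 1 of the 10 genes against 3.44% of all features. Without A217 at 0 h, A220 or A225 at 0 h or at 24 h this call was lost (adjusted p 0.0504 to 0.102). The block fit called 6 higher (Wwtr1, Tead1, Ankrd1, Amotl2, Crim1 and Axl), against 14% of all features. In negative lines Crim1 rose by 0.28 ± 0.06 (adjusted p 0.0279), 1 of the 10 against 2.73%, and this call was lost without any 1 of the 4 libraries (adjusted p 0.0615 to 0.233). With the block 4 rose (Ankrd1, Amotl2, Crim1 and Axl), against 13.6%. At 4 h relative to 0 h edgeR called 0 of the 10 in inducible lines (1 at an unadjusted p below 0.05, 0 by DESeq2, 0 with the block), against 0.298% of all features, and 3.05% with the block. In negative lines it called 0 (2 at an unadjusted p below 0.05, 0 by DESeq2), against 0.121% of all features, and with the block Ajuba fell by 0.26 (adjusted p 0.0416), against 1.24% of all features that fell.

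Whether the induced alleles changed the response was asked by the difference of responses, inducible minus negative. For the 10 genes 0 differences were called at 4 h and 0 at 24 h (edgeR, against 0.0121% of all features in each; 0 members at an unadjusted p below 0.05 and 0 by DESeq2). The block fit called 0 as well, against 0.0182% of features at 4 h and 0.0243% at 24 h, with 1 member at an unadjusted p below 0.05 at 4 h and 0 at 24 h. The 24 h response of Axl was 1.09 ± 0.11 in inducible lines and 1.15 ± 0.13 in negative lines with the block, a difference of -0.06 with a 95% interval of -0.43 to 0.31. Both bounds are smaller in size than either response. For Ankrd1 the 24 h responses were 0.29 ± 0.07 in inducible lines and 0.47 ± 0.08 in negative lines, a difference of -0.18 (-0.41 to 0.04). For Crim1 the difference was -0.05 (-0.22 to 0.12), for Amotl2 -0.06 (-0.22 to 0.10), and for Tead1 0.15 (-0.15 to 0.44). The intervals of Ankrd1 and Tead1 reach past a response of one of their genotypes (0.29 for Ankrd1 in inducible lines, 0.30 for Tead1 in negative lines), and that of Amotl2 reaches its response in inducible lines, 0.22. In the fit without the line these intervals were wider, up to -2.21 to 2.16 for Axl.

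Before doxycycline, inducible and negative lines did not differ in any of the 10 genes past the threshold (edgeR, 0 members called, against 0% of all features; 1 at an unadjusted p below 0.05, 0 by DESeq2). That member was Ptpn14, with 95.7, 109 and 108 CPM in inducible lines, against 116 and 116 CPM in negative lines, which did not overlap, and a log2 difference of -0.15 (95% interval -0.28 to -0.02, adjusted p 1). For Tead1 the difference was -0.34 (-0.69 to 0.00), and for Axl -0.35 with an interval of -1.90 to 1.20.

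Genes of the same pathway outside the 10 were counted from 3 lists of named genes, as means over both genotypes. Of 22 Hippo kinases and upstream regulators 20 were tested, all but Fat4 and Dchs1, and at 24 h relative to 4 h 3 rose and 0 fell, against 11.3% and 8.24% of all features, with a median log2 of 0.09. These were Wwc1, which encodes the scaffold KIBRA (0.40 ± 0.05, edgeR adjusted p 0.000406), Fat1, an atypical cadherin (0.31 ± 0.06, adjusted p 0.00475), and the kinase gene Stk4 (0.13 ± 0.04, adjusted p 0.0384). With the replicate block 9 rose, against 21.2% of all features, among them Frmd6, the gene of a FERM-domain protein (0.18 ± 0.03, adjusted p 0.000685), and the kinase genes Taok3 (0.13 ± 0.03, adjusted p 0.00914) and Taok1 (0.13 ± 0.04, adjusted p 0.0270). The 1 that fell, against 15.9% of all features, was Sav1, a scaffold of the cascade (-0.11 ± 0.04, adjusted p 0.0299), named after its value was seen. Relative to 0 h, Amotl1, the gene of another angiomotin-like protein, rose at 24 h with the block (0.23 ± 0.04, adjusted p 0.000714), and in inducible lines Rassf1, a scaffold gene of the cascade, fell (-0.21 ± 0.05, adjusted p 0.00586).

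Of 6 other TEAD genes and cofactors 5 were tested, all but Vgll1. Median levels were 32.8 TPM for Tead2, 20.6 TPM for Tead4 and 8.96 TPM for Tead3, beside the 12.3 TPM of Tead1. At 24 h relative to 4 h edgeR called 0 of the 5 (1 at an unadjusted p below 0.05), against 11.3% of all features that rose and 8.24% that fell. In the block fit 1 of the 5, Tead2, fell (-0.32 ± 0.04, adjusted p 2.32e-05), against 15.9% of all features. Relative to 0 h, Tead2 fell at 24 h by 0.40 on the log2 scale (edgeR adjusted p 0.0400, and 4.14e-06 with the block), in the comparison in which Tead1 rose by 0.38. Tead4 fell with the block at 4 h relative to 0 h (-0.24 ± 0.05, adjusted p 0.0104) and at 24 h relative to 0 h (-0.16 ± 0.05, adjusted p 0.0252).

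Of 23 other genes listed as targets of YAP or TAZ 22 were tested, all but Foxf2. At 24 h relative to 4 h 9 rose and 2 fell, against 11.3% and 8.24% of all features, and their median log2 difference was 0.15. The kinase gene Nuak2 rose by 0.72 ± 0.07 (edgeR adjusted p 0.000108), Thbs1, the gene of the matrix protein thrombospondin 1, by 0.50 ± 0.14 (adjusted p 0.0296), and Ccn1, the gene of a matricellular protein, by 0.46 ± 0.10 (adjusted p 0.00744). Myof, which encodes the membrane repair protein myoferlin, rose by 0.39 ± 0.08 (adjusted p 0.00426). The 2 that fell were F3, the gene of tissue factor (-0.27 ± 0.08, adjusted p 0.0296), and Sh3bp1 (-0.36 ± 0.07, adjusted p 0.00352), named after its value was seen. In the block fit 11 rose and 5 fell, against 21.2% and 15.9% of all features. Relative to 0 h, Igfbp3, the gene of a protein that binds insulin-like growth factors, fell at 24 h with the block (-0.45 ± 0.05, adjusted p 1.3e-05). At 4 h relative to 0 h edgeR called 0 of the 22 (6 at an unadjusted p below 0.05). The block fit called 3 higher and 6 lower at 4 h, against 3.75% and 4.92% of all features. Among them Arhgap29 rose (0.45 ± 0.04, adjusted p 4.13e-05), and Fjx1, the counterpart of Four-jointed, a Golgi kinase that acts on Fat cadherins in Drosophila, fell (-0.55 ± 0.06, adjusted p 0.000191). Listed targets thus moved in both directions at each time.

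**Figure D4:**
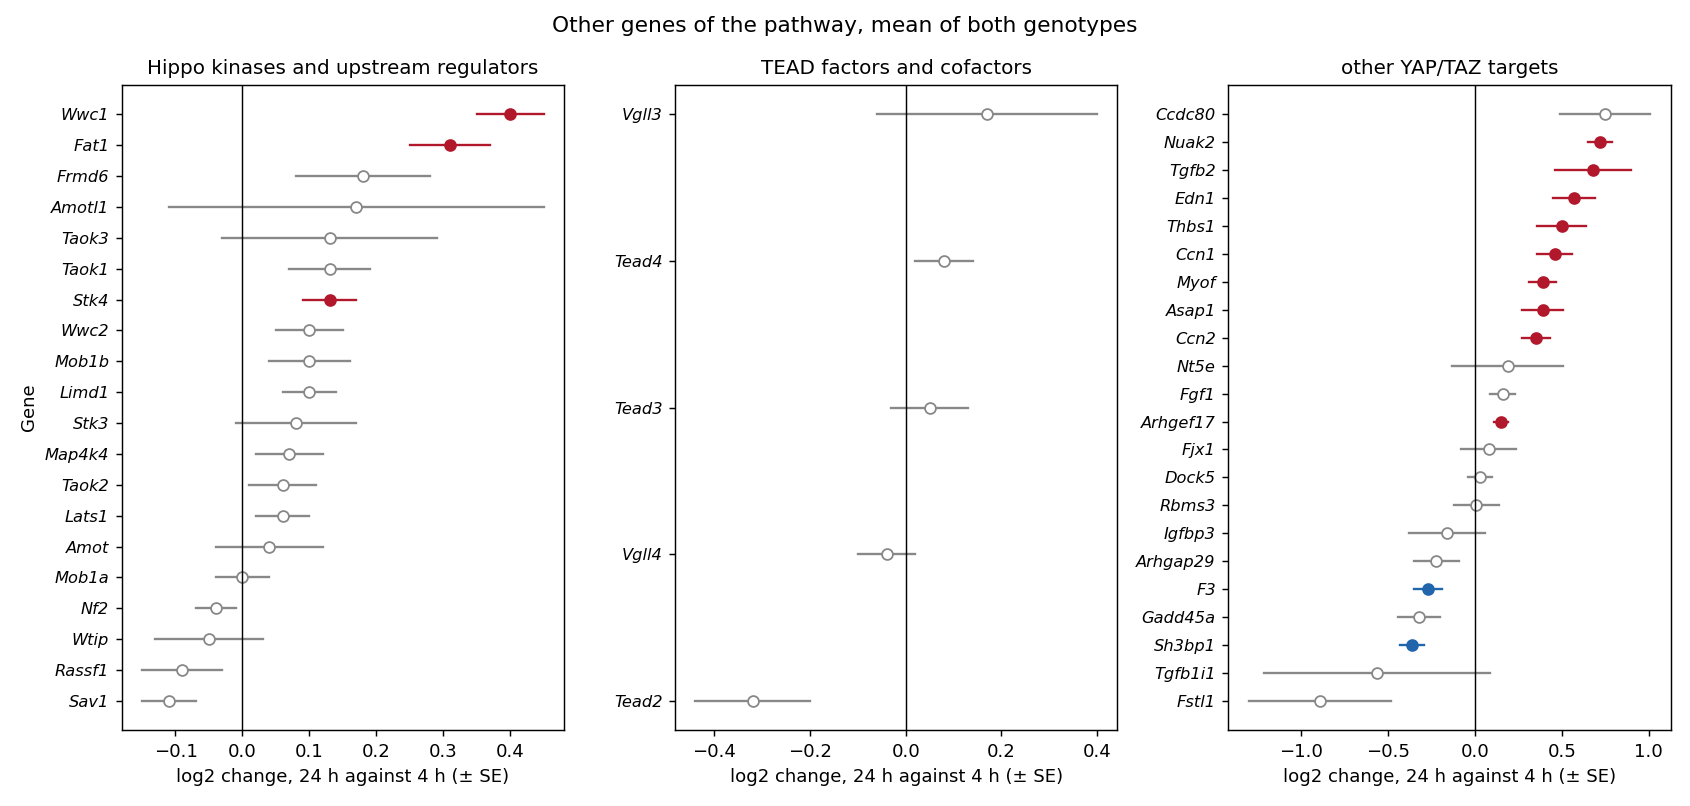
Log2 difference of 24 h against 4 h (± SE), averaged over both genotypes, for the tested genes of 3 pathway lists: 20 Hippo kinases and upstream regulators, 5 TEAD factors and cofactors, and 22 other targets of YAP or TAZ. Filled red symbols rose and filled blue symbols fell at an adjusted p of 0.05 in the fit without the line: 3 and 0 in the first list, 0 and 0 in the second, 9 and 2 in the third.

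Markers of other cells and of the duct were read beside these results. The summed level of 11 duct markers was 13000 to 14800 TPM in inducible and 14800 to 15700 TPM in negative lines at 24 h, against 9820 to 11600 TPM in inducible and 9310 to 10600 TPM in negative lines at 4 h, so it moved with the 5 members that rose. Krt18, Krt8 and Krt19 had the highest medians of this list, at 4180, 3730 and 2070 TPM. Of the 11 duct markers 8 rose at 24 h relative to 4 h, against 11.3% of all features, and 2 had a negative difference. Those that rose included Krt8 (0.65 ± 0.07, edgeR adjusted p 0.000168) and Sox9 (0.55 ± 0.09, adjusted p 0.00219). With the replicate block 8 rose and 1 fell, against 21.2% and 15.9% of all features. The part of the duct markers in the members' differences was not tested. Of 8 fibroblast and stellate markers 0 passed 1 TPM in any library and 0 were at 0 in all 15. Their summed level was 0.0634 to 0.292 TPM in all but 4 libraries: A225, which had the highest Axl and Ankrd1 of the inducible lines, at 1.26, 1.89 and 1.91 TPM at 0, 4 and 24 h, and A223 at 24 h, at 1.28 TPM. With the replicate block Col1a2 and Col3a1 of this list rose at 24 h relative to 4 h. The part of these markers in the levels of Axl and Ankrd1 was not tested.

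The isoforms behind each level were read from the authors' transcript TPM, as shares over all 15 libraries. Ankrd1, Crim1 and Ajuba had 1 transcript each in the files, and Wwtr1-201 held 97.7% of Wwtr1. Yap1 was split between Yap1-201 (40.7%), Yap1-202 (36.8%) and Yap1-210 (16.1%). Amotl2-201 held 49.9% and the noncoding Amotl2-212 held 16.8% of Amotl2, and Lats2-201 held 76.6% of Lats2. For Tead1 the largest share over the 15 libraries was 15.9% (Tead1-202), with up to 23.2% in a single library. Tead1-207 held 14.4%, Tead1-208 13.5% and Tead1-211 13.2%. Axl-201, a protein-coding form, held 70% of Axl, and averaged 1.37, 1.67 and 3.58 TPM at 0, 4 and 24 h in inducible lines and 1.89, 1.99 and 4.28 TPM in negative lines. The retained-intron form Axl-203 held 13.3% of Axl and Axl-202 held 10%. With the offset for effective length, which takes the isoform mix into account, the log2 difference of Axl at 24 h relative to 0 h was 0.95, against 1.12 without it.

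The tested genes whose log2 CPM followed a member most closely over the 15 libraries were named for the 3 members with the largest SD. They were Ehd2 (Pearson's r = 0.963), Cyth3 (0.960) and Bcar3 (0.958) for Axl. For Ankrd1 they were Mok (0.941), Rgs12 (0.936) and Prl2c3 (0.936), and for Tead1 Wnk1 (0.944), Cdc42bpa (0.918) and Mcc (0.913). These values are a description: the 15 libraries come from 5 lines, and line, time and library are shared by all genes.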

How the data were processed

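The samples were 15 RNA libraries of total RNA, depleted of ribosomal RNA, from 5 organoid lines. The submitters' processing notes name kallisto 0.43.1, GRCm38, DESeq2 1.18.1 and DESeq. Deposited by the authors, per the file headers, were estimated counts per transcript, without normalisation, and TPM values. The sources used here do not say if strand was used. Summing estimated counts per gene followed GENCODE M21, which may differ from the authors' release, and sums were rounded; 1295 of 109304 transcripts had no match (0.556 to 0.593% of counts) and were left out.

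edgeR's quasi-likelihood test was the main test (edgeR 4.0.16 in R 4.3.3), after TMM scaling and edgeR's expression filter, with 6 group means fitted to all 15 libraries, with 9 residual degrees of freedom and a biological coefficient of variation of 0.157. Benjamini-Hochberg adjustment covered the 16462 features of each comparison; a call needs an adjusted p below 0.05. The same lines were sampled at each time, so lines pair the libraries: deviations from group means of libraries of 1 line correlated at 0.320 to 0.435 in inducible and 0.192 to 0.243 in negative lines. The replicate block fit, with the line as a term, had 6 residual degrees of freedom and a coefficient of 0.0577. It could not be fitted for inducible against negative lines at 0 h, since lines are nested in genotype. Alternatives were limma-voom 3.58.1 with a random block (correlation 0.417), DESeq2 1.42.0, median-of-ratios scaling, other filters, an effective length offset from the deposited TPM, the compared groups alone, and leaving out each library or, chosen after seeing the data, each line. The fits were tested on simulated data.

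The 10 genes, the pathway and marker lists and the rules were chosen with earlier results of these data known. Pathway genes were named if called in either fit, at most 8 per list by smallest p; nearest genes were named for the 3 members with the largest SD. Promoter sequence was printed for the first members with a motif, and not for Ankrd1, where an annotated exon covers it. Counting error alone is small at these depths for the members other than Axl, which had 89 counts in A217 at 4 h. Reads carry no molecular identifiers.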

Additional observations from a re-analysis of the deposited data

Results flagged for a closer look

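Tead1 differed between genotypes in direction at 4 h relative to 0 h: the within-line log2 difference was 0.32, 0.19 and 0.12 in the inducible lines A217, A220 and A225, and -0.17 and -0.22 in the negative lines A218 and A223. The difference of responses was 0.4 on the log2 scale (95% interval -0.09 to 0.90), with an unadjusted p of 0.0984 and an adjusted p of 1 by edgeR's quasi-likelihood test. With the replicate block it was 0.41 (0.10 to 0.71), with an unadjusted p of 0.0122 and an adjusted p of 0.991, so it was not called in either fit. At 24 h relative to 0 h Tead1 was higher in all 3 inducible and both negative lines. Mean levels of Tead1 were 23 CPM in inducible and 29.2 CPM in negative lines at 0 h, and 26.6 and 25.5 CPM at 4 h. The genotypes thus lay further apart at 0 h, which enters each response, than at 4 h. The part of the 0 h levels in the opposite directions was not tested.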

How the results depend on the processing

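Of 2040 values of the 10 genes under alternatives, 1929 kept their side of the threshold, 43 became called and 68 lost a call; 0 of the called values changed sign, and 143 values called in neither fit had the opposite sign. The number of members called at 24 h relative to 4 h, averaged over genotypes, was 5, and 9 with the replicate block, 8 with limma-voom and 1 to 5 when 1 library or 1 line was left out. At 24 h relative to 0 h it was 3, and 7 with the replicate block, 6 with limma-voom, 1 with the effective length offset, 1 with the compared groups alone and 0 to 4 with a library or line left out. At 4 h relative to 0 h it was 0, and 3 with the block, 1 with limma-voom, 1 with DESeq2 and 0 to 1 with a library or line left out. In inducible lines at 24 h it was 1, and 6 with the block, 4 with limma-voom, 2 with DESeq2, 0 with the compared groups alone and 0 to 2 with a library or line left out. In negative lines it was 1 at 24 h, and 4 with the block, 3 with limma-voom, 3 with the compared groups alone and 0 to 1 with a library or line left out; at 4 h it was 0, and 1 with the block. Shares of all features were taken for the main and replicate block fits only, so member counts of the other fits stand without one. Leaving out a library also removes degrees of freedom, and with 1 negative line left its spread is assumed to be like that of the others. Crim1 at 24 h relative to 4 h was called with every 1 library or line left out (adjusted p 0.000228 to 0.0318). For differences of responses and for genotypes at 0 h every alternative gave 0 members. The gene with the fewest reads, Axl, had 6192 counts over the 15 libraries, with 109, 89 and 206 counts at 0, 4 and 24 h in A217. Whether depth or the number of lines sets the precision was not tested.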

Other observations

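The genes closest to the other members over the 15 libraries, outside the 3 members chosen by their SD, were Dusp1 (Pearson's r = 0.966), Ccn1 (0.960) and Errfi1 (0.957) for Amotl2, and Slc6a6 (0.948), Cdc42ep1 (0.947) and Arf2 (0.947) for Crim1. For Ajuba they were Clcf1 (0.951), Mid1ip1 (0.941) and Arhgef18 (0.932), and for Lats2 Amotl1 (0.935), H2-DMb1 (0.929) and Msrb3 (0.927). These were chosen after their values were seen, and the libraries share lines and times.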
